A study of Homo sapiens with 4 samples.

Results

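The 41 genes PSMA1 to PSMA7, PSMB1 to PSMB10, PSMC1 to PSMC6, PSMD1 to PSMD14 and PSME1 to PSME4, which encode most subunits and activators of the proteasome and some of its assembly factors, were examined in the IGF2BP2-bound RNA of Jurkat cells. They comprised 17 genes of the core particle (7 PSMA and 10 PSMB genes) and 24 regulatory genes (6 PSMC, 14 PSMD and 4 PSME genes), of 20056 protein-coding genes in all. Members were chosen by symbol, and a peak was counted for a member when it lay on the gene's sense strand and carried the Ensembl identifier that the position of its peaks tied to that gene.

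IGF2BP2 is an RNA-binding protein that recognises methylated adenosines in messenger RNA. Its bound RNA was recovered by iRIP-seq, in which RNA is crosslinked to protein by ultraviolet light, precipitated with an antibody and sequenced. Jurkat is a human line of T-cell acute lymphoblastic leukaemia, grown here in RPMI-1640 with serum and antibiotics and otherwise untreated. All values come from 2 libraries precipitated with anti-IGF2BP2 (replicates 1 and 2), and the matching input libraries were not analysed here, so strong binding and abundant RNA cannot be told apart in any value. A single cell line in a single condition was used, the labels do not say whether the replicates came from separate cultures, and no result below is a test between groups.

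The proteasome degrades proteins that carry ubiquitin chains. Its core is a barrel of stacked rings, with alpha subunits (PSMA genes) forming the outer rings that gate entry and beta subunits (PSMB genes) forming the inner rings that hold the proteolytic sites. The regulatory particle caps the barrel: its ATPases (PSMC genes) unfold the substrate, its other subunits (PSMD genes) receive and remove ubiquitin, and separate activators (PSME genes) can take its place. Its inhibitors are used against some blood cancers.

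The peak lists held 145715 peaks in replicate 1 and 137934 in replicate 2. The height of a peak is given in tags, without adjustment for sequencing depth, which is unknown. The lists began at 4 tags in replicate 1 and 5 tags in replicate 2, so a gene without a listed peak can still have had bound RNA below that height. Sense peaks were found on 8 of the 10 T-lineage marker genes in each library and in both libraries on 7, including 36 and 37 on ZAP70, 12 and 12 on LCK and 6 and 9 on CD3E, whereas LAT had none. Of the 12 marker genes of B, myeloid, erythroid and epithelial or stromal cells 2 had sense peaks in both libraries (CSF1R with 1 and 1, KRT8 with 3 and 2), and 3 had them in replicate 2 alone (MS4A1, CD79A and COL1A1). None of the 12 had overlapping peaks, and none of the 3 erythroid genes had a peak. Overlapping peaks were found on 6 of the 10 T-lineage genes.

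Peaks at the start codon fixed the scale on which positions are read, and the bases under them are shown for the 3 plus-strand members where a 50 nt peak crossed from 5′ UTR into coding sequence inside the RefSeq promoter window. In a further such peak, on PSMD13, the boundary lay outside the window and could not be read. Each run has 30 bases of GRCh38.p14, plus strand, written 5′ to 3′, and the capitals mark the start codon.
PSMD2: cagtggcggcggagATGgaggagggaggcc
PSMD11: gtgagagcggtaagATGgcggcggcggcgg
PSMB4: ctgctaccgtgactaagATGgaagcgtttt
The PSMD2 bases (chr3:184299253-184299282) lay in a peak of 17 tags in replicate 1. The PSMD11 bases (chr17:32444510-32444539) lay in a peak of 6 tags in replicate 2, which overlapped one of 4.5 tags in replicate 1. The PSMB4 bases (chr1:151399571-151399600) lay in a peak of 5 tags in replicate 2. In all 3 the boundary between 5′ UTR and coding sequence in the authors' annotation fell exactly before the ATG.

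Most proteasome genes had IGF2BP2 peaks. Replicate 1 had 149 sense peaks on 33 of the 41 genes and replicate 2 had 195 on 35. Over all 20056 protein-coding genes, 11017 and 10721 had a sense peak in these libraries. A sense peak was present in both libraries for 31 of 41 genes (75.6%), against 44.5% of all protein-coding genes. The latter share counts every gene to which no identifier was tied as lacking a peak, and 4658 identifiers stayed without a name. Among genes with an identifier, which had at least 1 sense peak in a library, the shares were 83.8% (31 of 37 members) and 69.6% (8923 of 12815). Counted by position alone, for genes of known strand, they were 72.2% (26 of 36 members) and 49.3%. For 4 genes, PSMA6, PSMB10, PSMC6 and PSMD10, no sense peak was counted in either library. PSMB5 and PSME3 had sense peaks in replicate 1 alone, and PSMA3, PSMA4, PSMB9 and PSMD5 in replicate 2 alone.

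Both particles were represented. Among core genes, 11 of 17 (64.7%) had a sense peak in both libraries, with 4 of 7 PSMA and 7 of 10 PSMB genes. Among regulatory genes the count was 20 of 24 (83.3%), with 5 of 6 PSMC, 12 of 14 PSMD and 3 of 4 PSME genes. The share over all protein-coding genes was 44.5%, and 69.6% over those with an identifier. The core share was thus not above the latter, although PSMA6 and PSMB10 of the core and PSMC6 and PSMD10 of the regulatory genes had no identifier. The 2 sets differed by few genes, and with 1 condition and genes that are not replicates this difference was not tested.

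The number of peaks per gene was low for most members. The median was 2 sense peaks in replicate 1 and 4 in replicate 2, against 1 and 1 over all protein-coding genes. Over genes with an identifier the medians were again 2 and 4 for members, and 2 and 2 for all, so that in replicate 1 they were equal. Core genes had medians of 1 and 3, and regulatory genes of 2 and 5. More peaks were listed in replicate 2 than in replicate 1 for 26 members and fewer for 9, while over all protein-coding genes the counts were 5603 and 5288. At least 5 sense peaks in each library were found on 10 members (24.4%), of which 8 were regulatory, against 14.3% of all protein-coding genes.

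**Figure D1:**
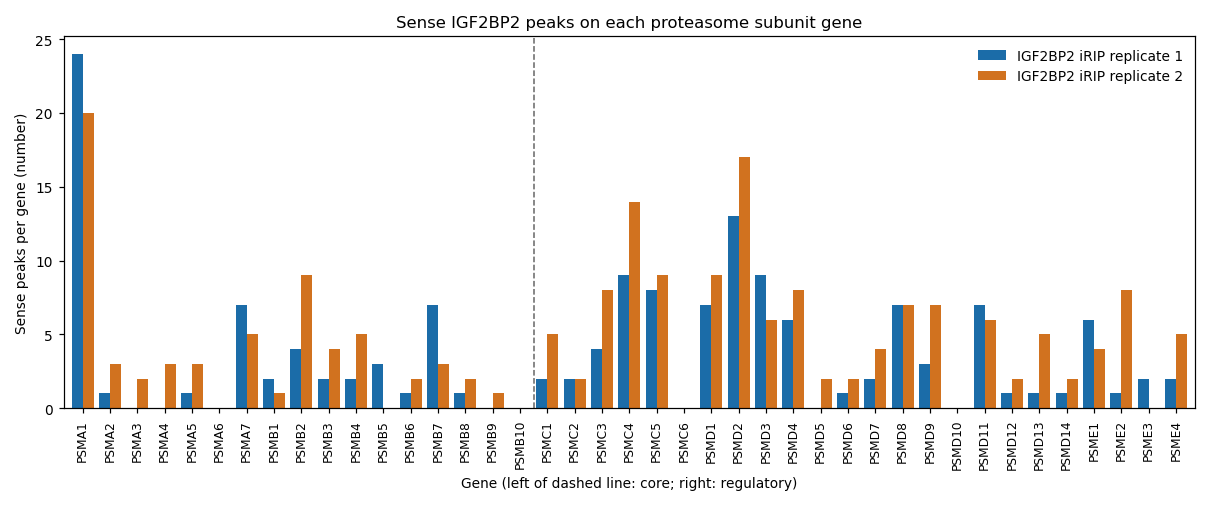
Number of sense IGF2BP2 peaks (vertical axis) on each of the 41 proteasome genes (horizontal axis), with a bar for each of the 2 iRIP libraries and a dashed line between core and regulatory genes. PSMA1 has the tallest bars, at 24 and 20 peaks, followed by PSMD2 at 13 and 17, and 4 genes have no bar.

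Proteasome genes are short, and the longer ones among them did not regularly carry more peaks. Their median length was 13.5 kb against 24.1 kb for all protein-coding genes, and the median density was 0.159 peaks per kb against 0.0208. Over genes with an identifier the median densities were 0.167 and 0.0483. Over the 41 genes, Spearman's rho between length and mean number of peaks was 0.104, whereas over all 20056 protein-coding genes it was 0.563. Over the protein-coding genes with an identifier it was 0.420. The 2 sets of members differed, with 0.381 for core genes (0.256 without PSMA1) and -0.166 for regulatory genes. These correlations are across genes measured in the same 2 libraries and serve as a description. The densest were PSMC5 (1.85 peaks per kb over 4.59 kb), PSME1 (1.81 over 2.77 kb) and PSMD2 (1.53 over 9.81 kb), which are all regulatory genes. The sparsest gene with peaks was PSMD14, the lid deubiquitinase, with 0.0145 peaks per kb over 103 kb.

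The libraries often placed peaks at the same position of a proteasome gene. Overlapping sense peaks were found on 19 of 41 genes (46.3%), against 15.2% of all protein-coding genes. Among genes with an identifier the shares were 51.4% and 23.8%. They were on 6 core genes (PSMA1, PSMA7, PSMB2, PSMB3, PSMB4 and PSMB7) and on 13 regulatory genes (PSMC3, PSMC4, PSMC5, PSMD1, PSMD2, PSMD3, PSMD4, PSMD6, PSMD8, PSMD9, PSMD11, PSME1 and PSME2). Of the 55 overlapping pairs, 43 had identical bounds in the 2 libraries. All peaks start on a grid of 50 nt bins, and 140 of 149 and 181 of 195 member peaks spanned 1 bin. Overlapping peaks of 1 bin have identical bounds by construction, so that count does not measure how precisely positions agreed. In 53 pairs both peaks held coding sequence, and in 38 pairs coding sequence was the main region of both. The peak was higher in replicate 2 in 43 pairs, higher in replicate 1 in 7 and equal in 5.

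Another 12 genes had sense peaks in both libraries but at different positions. They were PSMA2, PSMA5, PSMB1, PSMB6, PSMB8, PSMC1, PSMC2, PSMD7, PSMD12, PSMD13, PSMD14 and PSME4. Over all 20056 protein-coding genes, 8923 had sense peaks in both libraries and 3052 had overlapping ones. Genes with peaks at different positions were thus common there too, and the 12 are not particular to the members. Of the replicate 1 sense peaks on all members, 36.9% (95% Wilson interval 29.6 to 44.9%, 55 of 149) were overlapped by a replicate 2 peak, against 19.9% over all protein-coding genes. In the other direction the share was 28.7% (22.8 to 35.4%, 56 of 195) against 18.1%. The intervals given here and below reflect counting error alone: PCR copies of a molecule are not independent reads, and the peaks of a gene share its RNA.

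Coding peaks recurred more often than intronic ones. Of the members' peaks with coding sequence as main region, 65.5% (52.7 to 76.4%) in replicate 1 and 39.2% (30.3 to 48.9%) in replicate 2 were overlapped by the other library. Of their intronic peaks the shares were 15.5% (8.88 to 25.7%) and 14.7% (8.19 to 25.0%). All protein-coding genes showed the same order, with 45.8% and 35.1% for coding peaks and 8.73% and 8.40% for intronic ones.

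Most peaks were low. The median height of the members' peaks was 4 tags in replicate 1 and 6 in replicate 2, and 50.3% and 37.9% of the peaks stood at the lowest height of their list, less than the 63.6% and 51.1% over all protein-coding genes. At least 10 tags were reached by 4.70% and 15.4% of the members' peaks, against 3.23% and 10.1%. Peaks of at least 10 tags were listed for 5 genes in replicate 1 and 17 in replicate 2. The share of all protein-coding genes with such a peak in a single library was not computed, so these counts have no background beside them. In both libraries such a peak was present for 3 of 41 genes (7.32%), namely PSMA7, PSMC3 and PSMD2, against 3.8% of all protein-coding genes. The highest member peaks, 20 tags on PSMA7 in replicate 1 and 42 on PSMD2 in replicate 2, stayed below the highest over all protein-coding genes, 69 and 90 tags.

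**Figure D2:**
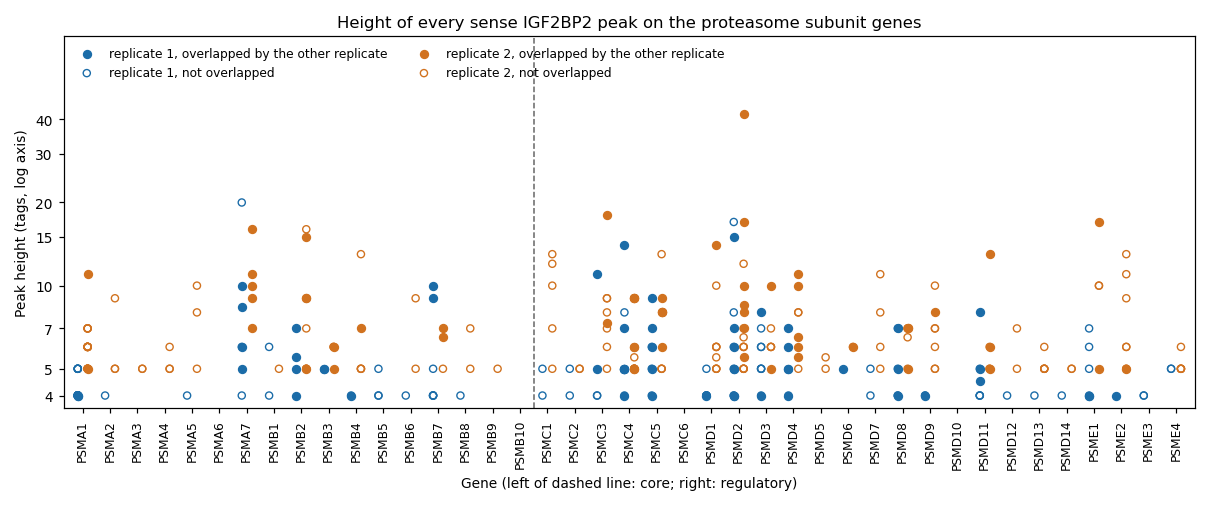
Height in tags (vertical log axis) of every sense peak on each proteasome gene (horizontal axis), in blue for replicate 1 and orange for replicate 2, with filled points for peaks overlapped by the other library. The shared PSMD2 peak at 42 and 15 tags is the highest filled pair, and many open points lie at 4 and 5 tags.

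The alpha-subunit genes differed widely. PSMA7, an alpha subunit of the core, had 7 and 5 sense peaks, and none of them was intronic. Its best shared peak (chr20:62143201-62143250) reached 10 tags in replicate 1 and 16 in replicate 2 and lay 169 nt from the annotated gene start, with 0.86 of its length in coding sequence. A second shared pair reached 8.33 and 10 tags (replicate 2 bounds chr20:62139851-62139900) and was wholly coding. Its highest peak, 20 tags in replicate 1 (chr20:62140801-62140850), had no overlapping peak in replicate 2.

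PSMA1, which encodes another alpha subunit, had the most peaks of all members, with 24 and 20, but they were of another kind. Of these, 23 and 19 were intronic and the other in each library lay in 5′ UTR. All were upstream of the start that the RefSeq promoter table gives for PSMA1 (chr11, position 14520386), along the long upstream portion of the 139 kb annotated interval. Their highest was 5 tags in replicate 1 and 11 in replicate 2, and 2 pairs overlapped. The higher pair lay in 5′ UTR (chr11:14643451-14643500), with 4 tags in replicate 1 and 11 in replicate 2. A second Ensembl identifier held 2 and 3 further sense peaks of up to 4 and 10 tags in the body of PSMA1, and these were not counted.

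The other alpha-subunit genes had few peaks. PSMA2 had 1 and 3 sense peaks of up to 4 and 9 tags. Its identifier was tied to it by position, as for all members. That identifier may belong to a read-through transcript that spans another gene too, which was not checked. Without PSMA1 and PSMA2, 29 of 39 members (74.4%) had a sense peak in both libraries. PSMA5 had 1 and 3 peaks, of up to 4 and 10 tags. PSMA3 and PSMA4 had none in replicate 1, against 2 and 3 in replicate 2. The PSMA3 peaks stood at 5 tags each and were mainly coding, and the first of them (chr14:58244901-58244950) also spanned 5′ UTR, 82 nt from the annotated start. The PSMA4 peaks stood at 5, 5 and 6 tags, and none was mainly coding. No sense peak was counted for PSMA6. An identifier with 3 intronic peaks of up to 5 tags inside PSMA6 in replicate 1 was not tied to it by the naming rule, which used sense peaks alone. The same identifier also held 8 antisense peaks.

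Among the structural beta subunits, PSMB2 stood out by number. It had 4 and 9 sense peaks, and 4 of each library overlapped. Its best shared peak (chr1:35631251-35631300) reached 7 tags in replicate 1 and 9 in replicate 2, and 0.54 of it was coding sequence. In replicate 2 it also had peaks of 16 and 15 tags, both mainly intronic, of which the second had a partner of 4 tags in replicate 1. PSMB3 had 2 and 4 peaks, and its best shared one (chr17:38762401-38762450) was coding, with 5 and 6 tags. PSMB4 had 2 and 5 peaks of up to 4 and 13 tags, including the start-codon peak shown above. PSMB1 had 2 and 1, at up to 6 and 5 tags.

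The catalytic beta subunits come in constitutive and interferon-inducible forms, the latter building the immunoproteasome of immune cells. PSMB7, the constitutive subunit with trypsin-like activity, had 7 and 3 sense peaks. A shared peak at chr9:124414801-124414850 reached 9 tags in replicate 1 and 7 in replicate 2 and was mainly intronic, with 0.18 coding. A coding pair nearby (replicate 1 bounds chr9:124413901-124413950) reached 10 and 6.5 tags. PSMB10, the inducible counterpart of PSMB7, had no sense peak, and its 2 and 2 antisense peaks reached 5 and 7 tags.

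PSMB5, with chymotrypsin-like activity, had 3 peaks in replicate 1 and none in replicate 2. Their heights were 4, 4 and 5 tags, the highest of them was wholly coding, and 1 lay outside the RefSeq interval of the gene. PSMB8, its inducible counterpart, had 1 intronic peak of 4 tags in replicate 1 and peaks of 7 and 5 tags in replicate 2, the higher mainly coding. PSMB6, with caspase-like activity, had 1 peak of 4 tags in replicate 1 and peaks of 9 and 5 tags in replicate 2. PSMB9, its inducible counterpart, had a single intronic peak of 5 tags in replicate 2. Thus no constitutive or inducible catalytic gene other than PSMB7 had overlapping peaks in the 2 libraries.

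The ATPase genes included some of the best shared peaks. PSMC3 had 4 and 8 sense peaks, and its best shared peak (chr11:47425851-47425900) reached 11 tags in replicate 1 and 18 in replicate 2, with 0.68 of it coding. PSMC4 had 9 and 14 peaks, with 7 of each library overlapped. Its best shared peak (chr19:39980051-39980100) was 14 tags in replicate 1 and 9 in replicate 2, 0.62 of it coding, and was one of the 7 pairs that were higher in replicate 1. PSMC5 had 8 and 9 peaks on its 4.59 kb, and 5 pairs overlapped. The best of these (chr17:63831501-63831550) reached 9 and 8 tags and was 0.9 coding.

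The remaining ATPase genes had no overlapping peaks. PSMC1 had 2 and 5 sense peaks, with heights up to 5 tags in replicate 1 and 13 in replicate 2. PSMC2 had 2 and 2, all at or below 5 tags. PSMC6 had no sense peak, and 3 antisense peaks of 4 tags were listed for it in replicate 1.

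PSMD2, a large scaffold subunit of the base that receives ubiquitin-like domains of shuttle proteins, had the highest shared peak of all members. This peak (chr3:184299851-184299900) was wholly coding and reached 15 tags in replicate 1 and 42 in replicate 2. Among all protein-coding genes ranked by the lower height of their best shared peak, PSMD2 stood at position 145. The gene had 13 and 17 sense peaks, more than 96.1% of protein-coding genes by the mean of the 2 libraries. Of these, 9 and 12 were mainly coding. The start-codon peak of 17 tags in replicate 1 had no overlapping peak in replicate 2, where the adjoining bin (chr3:184299301-184299350) held a coding peak of 12 tags.

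PSMD1, the other large scaffold of the base, had 7 and 9 sense peaks along 116 kb. In replicate 1 they were low, at up to 5 tags, and 6 were intronic. In replicate 2 they reached 14 tags, and that peak (chr2:231061251-231061300), 0.68 of it coding, was the one with a partner in replicate 1, of 4 tags.

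Lid subunits, which build the scaffold around the deubiquitinase, had moderate shared peaks. PSMD11 had 7 and 6 sense peaks, with 8 tags in replicate 1 and 13 in replicate 2 at its best shared position (chr17:32446901-32446950). PSMD3 had 9 and 6, with 8 and 10 tags at its best (chr17:39984251-39984300). Both of these peaks were mainly intronic and only touched coding sequence, at 0.12 and 0.14 of their length. PSMD8 had 7 and 7 peaks, and its best shared one (chr19:38376151-38376200) stood at 7 tags in each library, 0.82 of it coding. PSMD6 had 1 and 2, with a coding pair of 5 and 6 tags.

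The other lid genes had no overlapping peaks. PSMD7 had 2 and 4 sense peaks of up to 5 and 11 tags, PSMD12 had 1 and 2 of up to 4 and 7, and PSMD13 had 1 and 5 of up to 4 and 6. PSMD14 had 1 and 2, of 4 and 5 tags, all mainly intronic, and a replicate 2 peak held coding sequence over 0.34 of its length.

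PSMD4, a receptor of ubiquitin chains, had 6 and 8 sense peaks, mostly coding (4 and 7). Its best shared pair (replicate 1 bounds chr1:151263901-151263950) reached 6 tags in replicate 1 and 6.5 in replicate 2. The assembly factors of the base, PSMD5, PSMD9 and PSMD10, are not part of the finished particle. PSMD9 had 3 and 7 peaks of up to 4 and 10 tags. PSMD5 had none in replicate 1 and peaks of 5 and 5.5 tags in replicate 2, the latter mainly coding. PSMD10 had no peak on either strand in either library.

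The activator genes were uneven. PSME1 and PSME2 encode the interferon-inducible activator ring, and both had overlapping peaks. PSME1 had 6 and 4 sense peaks on 2.77 kb, and a shared coding peak (chr14:24137501-24137550) stood at 17 tags in replicate 2 and at 4 in replicate 1. PSME2 had 1 peak of 4 tags in replicate 1 and 8 of up to 13 tags in replicate 2. PSME3, a nuclear activator, had 2 peaks of 4 tags in replicate 1, both mainly 5′ UTR, and none in replicate 2. PSME4, the largest activator, had 2 and 5 peaks of up to 5 and 6 tags along 107 kb, none of them shared.

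Coding sequence took a larger share of peaks in proteasome genes than in protein-coding genes as a whole. It was the main region of 38.9% of the members' peaks in replicate 1 (31.5 to 46.9%, 58 of 149) and 52.3% in replicate 2 (45.3 to 59.2%, 102 of 195), against 24.8% and 30.5% over all protein-coding genes. Some coding sequence was held by 57.7% and 74.9% of the members' peaks, against 34.1% and 42.2%. A mainly coding peak was present in both libraries for 18 of the 41 genes (43.9%, against 17.1% of all protein-coding genes), of which 13 were regulatory. Introns were the main region of 47.7% and 34.9% of the members' peaks, against 64.3% and 57.6%.

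Peaks in 3′ UTR were rare. There were 0 of 149 in replicate 1, with an upper Wilson bound of 2.51%, and 3 of 195 in replicate 2 (1.54%, 0.525 to 4.42%), against 4.38% and 4.64% over all protein-coding genes. The upper bound lay below the overall share in each library, only narrowly in replicate 2. Peaks of a gene are not independent, so this was not a test. One of the 3, a PSMD2 peak of 6 tags, lay only 234 nt from the annotated start of the gene. Peaks in 5′ UTR made up 5.37% and 3.08% (overall 3.39% and 3.90%), and noncoding exons 8.05% and 8.21% (overall 3.13% and 3.36%).

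The core and regulatory genes differed in composition, and in replicate 1 the order of the 2 sets depended on PSMA1. Coding sequence was the main region of 29.1% (18.8 to 42.1%) and 31.7% (21.6 to 44.0%) of the core peaks, and of 44.7% (35.0 to 54.7%) and 62.1% (53.6 to 69.9%) of the regulatory peaks. Without PSMA1 the core shares were 51.6% (34.8 to 68.0%) and 46.5% (32.5 to 61.1%). The order of the 2 sets then turned in replicate 1 but stayed the same in replicate 2. The intervals of core without PSMA1 and regulatory genes overlapped in both libraries. Over all members without PSMA1, the coding shares were 46.4% and 58.3%.

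**Figure D3:**
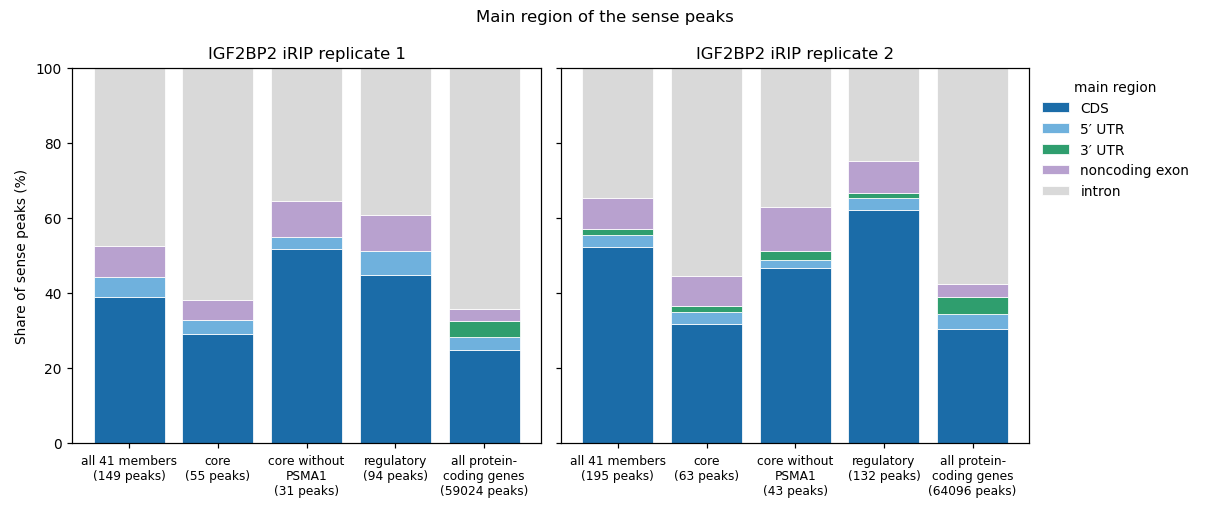
Share of sense peaks by main region (vertical axis, percent) in each library (panels), for all members, core genes, core genes without PSMA1, regulatory genes and all protein-coding genes (horizontal axis, with numbers of peaks). The coding portion is 38.9% and 52.3% for all members against 24.8% and 30.5% for all protein-coding genes, and the intron portion of the core shrinks when PSMA1 is left out.

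Peaks lay along the whole length of the genes. When each gene was divided into 3 equal parts, 39.9%, 27.0% and 33.1% of the members' peaks in replicate 1 lay in the first, middle and last part, and 43.3%, 26.3% and 30.4% in replicate 2. Over all protein-coding genes the shares were 33.3%, 31.2% and 35.4%, and 33.3%, 30.5% and 36.2%. Without PSMA1 the members' first and last parts held 38.7% and 37.1% in replicate 1, a difference of 48 against 46 peaks, and 43.1% and 33.9% in replicate 2. The peaks of single genes showed different layouts, since those of PSMD4 were mostly in the last part, where PSMA1 had none in replicate 2.

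**Figure D4:**
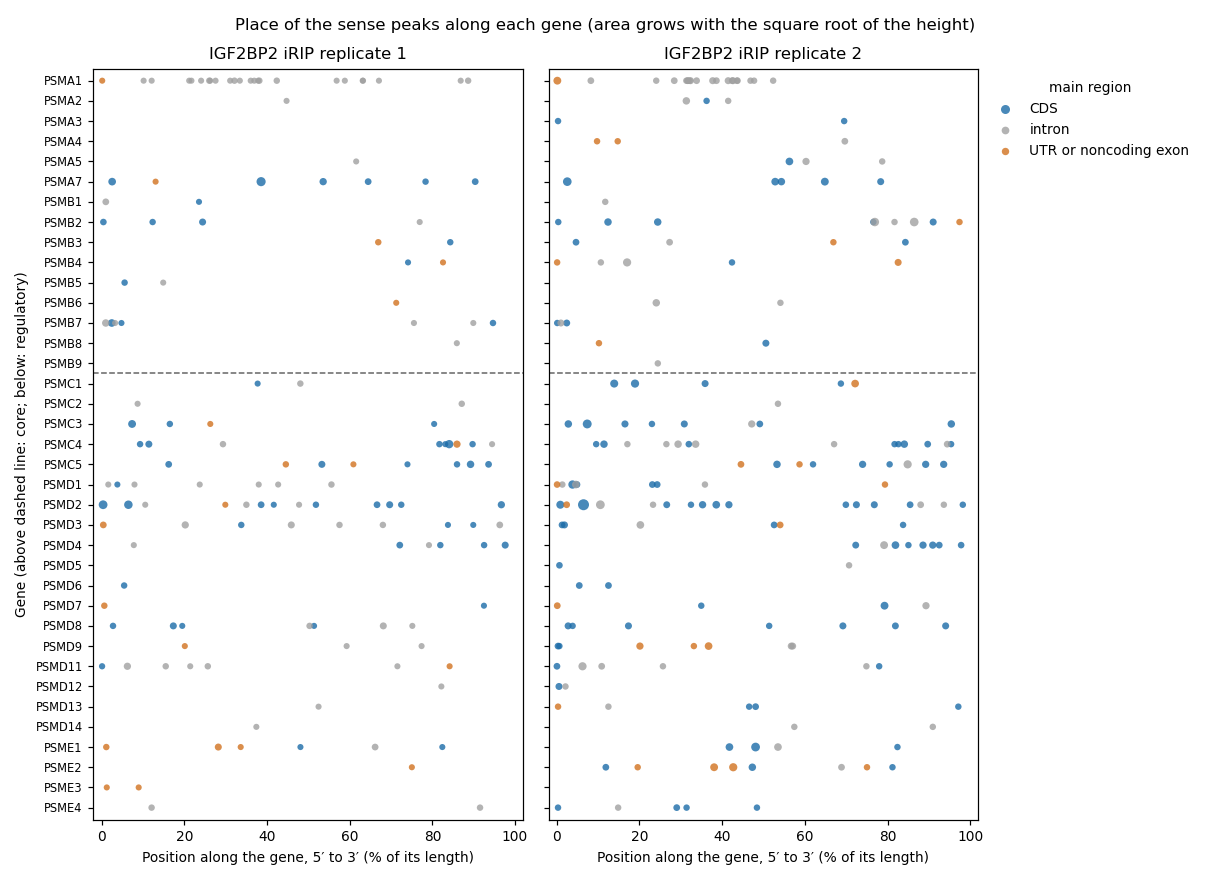
Position of each sense peak along its gene (horizontal axis, percent of length from 5′ to 3′) for every member with a peak (vertical axis), in replicates 1 and 2 (panels), coloured by main region. PSMA1 shows a row of 23 and 19 intronic peaks, whereas coding peaks prevail on PSMA7, PSMC5, PSMD2 and PSMD8.

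Antisense peaks were found for 17 members in either library, with 17 peaks in replicate 1 and 23 in replicate 2, and reached at most 6 and 7 tags. In both libraries they were found for 6 members. Of the 36 members with a known strand in the promoter table, 38.9% had one in either library and 16.7% in both, against 52.9% and 25.9% of all such protein-coding genes.

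Many proteasome genes have processed pseudogenes of similar sequence, and the study kept uniquely mapped reads alone. The RefSeq table names 51 pseudogenes for 20 of the members. A sense peak in both libraries was found for 16 of these 20 genes (80%) and for 15 of the 21 without a named pseudogene (71.4%). Median peaks per gene were 2 and 3.5 with a pseudogene and 2 and 4 without. All 3 members with at least 10 tags in both libraries have a named pseudogene. Peaks on the pseudogenes themselves were found for 1 in each library, PSMA2P2 in replicate 1 and PSMD2P1 in replicate 2. The part of reads shared between genes and pseudogenes was not tested.

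Other genes of the pathway had a sense peak in both libraries about as often as the members. Of 31 listed genes for further subunits, assembly, deubiquitination, shuttling and ubiquitin itself, 24 (77.4%) had such peaks. The share was 75.6% for members and 44.5% for all protein-coding genes. Overlapping peaks were found on 17 (54.8%), against 46.3% of members and 15.2% of all. At least 10 tags in both libraries were reached by 6 of the 31 (19.4%), against 7.32% of members and 3.8% of all protein-coding genes. RPS27A, which encodes ubiquitin fused to a ribosomal protein, had a shared peak with a lower height of 20 tags. No peak was listed for PSMB11, the thymus-specific catalytic subunit, or for the shuttle factor UBQLN2.

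Beside the TRiC and aminoacyl-tRNA synthetase genes, proteasome genes had the lowest share with peaks in both libraries, with overlapping peaks and with at least 10 tags in both. All 8 genes of the TRiC chaperonin, which folds actin and tubulin, had sense peaks in both libraries, 6 of them overlapping, and 3 had at least 10 tags in both. Of the 20 cytoplasmic aminoacyl-tRNA synthetase genes, 18 had sense peaks in both libraries, 14 had overlapping peaks and 8 had at least 10 tags in both. Their median numbers of peaks were 8.5 and 10, against 2 and 4 for proteasome genes, on genes with a median length of 35.0 kb against 13.5 kb. Coding sequence was the main region of 58.1% and 58.9% of the TRiC peaks and of 54.4% and 54.1% of the synthetase peaks, against 38.9% and 52.3% for proteasome genes. These counts are set side by side without a test.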

How the data were processed

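Paired reads of 150 bp were aligned by the authors with TopHat2 to GRCh38 (build and tools per the labels). By the paper's account, multiply mapped reads were set aside and peak heights were tested against 500 simulations per gene (p-value under 0.05). Peaks also found in input were then removed. The listed p-values do not show such a per-gene step. Member peaks of 4 tags in replicate 1 had 0.00755 on the minus strand and 0.00759 on the plus strand, whatever the gene. The highest listed p-values were 0.00759 in replicate 1 and 0.00437 in replicate 2. How these p-values arose was not tested. Peak heights were deposited as a signal in tags, not adjusted for depth, and the deposited p-value was used as a filter only. Regions and Ensembl identifiers are those of the authors. Depth is unknown, and no detection floor is given.

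Deposited starts count from 0 and are printed here from 1. Peaks overlapped when they shared 1 bp or more of the same strand. On the 50 nt grid any overlap of members' peaks covered at least 1 bin. The 50% overlap alternative was therefore almost bound to return the same values. A peak belonged to the region with its largest share, and peaks that were mainly antisense or intergenic were not counted as sense peaks. Identifiers were named by position from RefSeq (GRCh38.p14): the gene holding at least 80% of an identifier's coding and UTR peaks within 1000 nt, on the promoter table's strand where known, and where several remained, the one holding the sense peaks too. Identifiers without such peaks took the only gene holding all their sense peaks. Of 20428 identifiers 15770 were named, and 37 of 41 members had one. With strands reversed, 0 of the 36 members in the promoter table were named.

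The members and lists were chosen with earlier results of these data known. Values are written out for the 12 members with the highest shared peaks (ranked by the lower height), members lacking a peak in a library, the catalytic pairs, the 5 with most peaks, and pathway genes with a shared peak of at least 10 tags or no peak; further genes were added after their values were seen. Some pathway genes that meet this rule are not reported here. Alternatives were minimum heights of 5 and 10 tags, a p-value under 0.001, exonic peaks only, weighting by coding length, 50% overlap, strand ignored, naming by position and each library left out; leaving out PSMA1 and PSMA2 was chosen after seeing the data. On simulated data all 500 identifiers and 464 shared peaks were recovered. Python 3.11.15, pandas 2.3.3 and scipy 1.17.1 were used.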

Additional observations from a re-analysis of the deposited data

How the results depend on the processing

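Of 67 alternative values, 38 stayed within 1.5 times the reported count or within the reported interval and 29 moved, all but 1 of them under stricter filters on peaks. With at least 5 tags, 21 members, 6 of them core genes, had a sense peak in both libraries, the replicate 1 median was 1 peak, and the coding and overlapped shares of replicate 1 were 56.2% and 52.1%. Overlapping peaks were then found on 13 members. With at least 10 tags, 3 members (1 core, 2 regulatory) and 6 pathway genes had a peak in both libraries, 3 members had overlapping peaks, both medians were 0 and the replicate 1 coding share was 100%. With a p-value under 0.001 the counts were 12 members (3 core, 9 regulatory) and 11 pathway genes, 10 members had overlapping peaks, the medians were 0 and 1, the coding shares 67.6% and 59.7%, and the overlapped share 50%. With exonic peaks only, 21 members and 6 core genes had a sense peak in both libraries, the medians were 1 and 2, the coding shares 74.4% and 80.3%, and the overlapped share 56.4%. Replicate 2 against replicate 1 gave an overlapped share of 28.7%. Stricter filters leave fewer peaks by construction. The background moved with them: a sense peak in both libraries was found for 51.2% of members against 27.4% of all protein-coding genes at 5 tags, and for 29.3% against 12.1% at a p-value under 0.001. With exonic peaks only the shares were 51.2% and 22.2%. Leaving out either library gave 33 to 35 members, 12 to 14 core, 21 regulatory and 26 to 27 pathway genes. No paired analysis was possible because only the precipitated libraries were analysed and no result came from a test. Heights are limited by the unknown depth: peaks of 4 tags are listed in replicate 1 but not in replicate 2, whose list starts at 5.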
